A study of Caenorhabditis elegans with 20 samples.

Results

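Ketone body metabolism is covered here by *C05C10.3*, *ech-7*, *kat-1* and *sur-5*, 4 of the 22736 genes in the count table. They were chosen by name, as the ketone body genes outside the propionate shunt that the study displayed. That display followed a pathway enrichment in these same libraries, so their values between the study's groups are given as a description. Where the fit over all genes called any of the 4, the call is reported beside the share of all genes and is not used as evidence. All 4 were matched by identifier and passed the low-count filter, as did 11270 genes in all. RNA came from gravid adults on day 1 of adulthood, in 4 groups of 5 biological replicates numbered 1, 2, 5, 6 and 7: Δ*dhgd-1* mutants with and without 64 nM vitamin B12 (adenosylcobalamin) in the agar, and wild-type N2 animals with and without it. The mutants carry *dhgd-1(tm6671)*, a deletion at the 5′ end of the gene for D-2-hydroxyglutarate dehydrogenase, in 1 strain backcrossed to N2. All groups ate *E. coli* OP50 and descended from stocks kept on vitamin B12. Each library pooled many animals, whose bodies were extracted without their eggs.

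Ketone bodies, chiefly acetoacetate and 3-hydroxybutyrate, carry energy from the breakdown of fatty acids and of the amino acids leucine and lysine. A tissue uses acetoacetate by attaching it to coenzyme A, after which a thiolase splits acetoacetyl-CoA into acetyl-CoA for the citric acid cycle. In mammals the liver makes ketone bodies, and muscle and brain burn them. *C05C10.3* encodes an ortholog of the human transferase that moves coenzyme A from succinyl-CoA to acetoacetate, and *sur-5* an acetoacetyl-CoA synthetase that spends ATP for the same attachment. The product of *kat-1* is a thiolase, and that of *ech-7* belongs to the enoyl-CoA hydratases, which add water to unsaturated acyl-CoA.

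Values are CPM, the reads of a gene scaled to 1 common total for every library. The libraries held between 2837943 and 15457950 counts (median 10564242.5), and each of the 4 genes had at least 58 counts in every library. Replicates 1 and 2 (2837943 to 7543391 counts) bear another series of library names than replicates 5 to 7 (6549113 to 15457950 counts). Libraries of supplemented wild-type replicate 7 and mutant replicate 1 stood apart from the rest, with median Spearman correlations to the other libraries of 0.922 and 0.918 across genes, which are not independent replicates. The *dhgd-1* count cannot check the genotype, because the method reads the 3′ end and the deletion lies at the 5′ end. The gene was at 18.2 to 59.3 CPM in mutants and 15.1 to 28.8 CPM in wild type. For the supplement, *acdh-1*, a gene of the propionate shunt, stood at 5.82 to 112 CPM in the 10 supplemented libraries and at 193 to 428 CPM in the 10 others, with no overlap. Summed markers of embryos and of sperm did not exceed 3 CPM in any library, whereas germline markers summed to 1871 CPM or more.

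**Figure D1:**
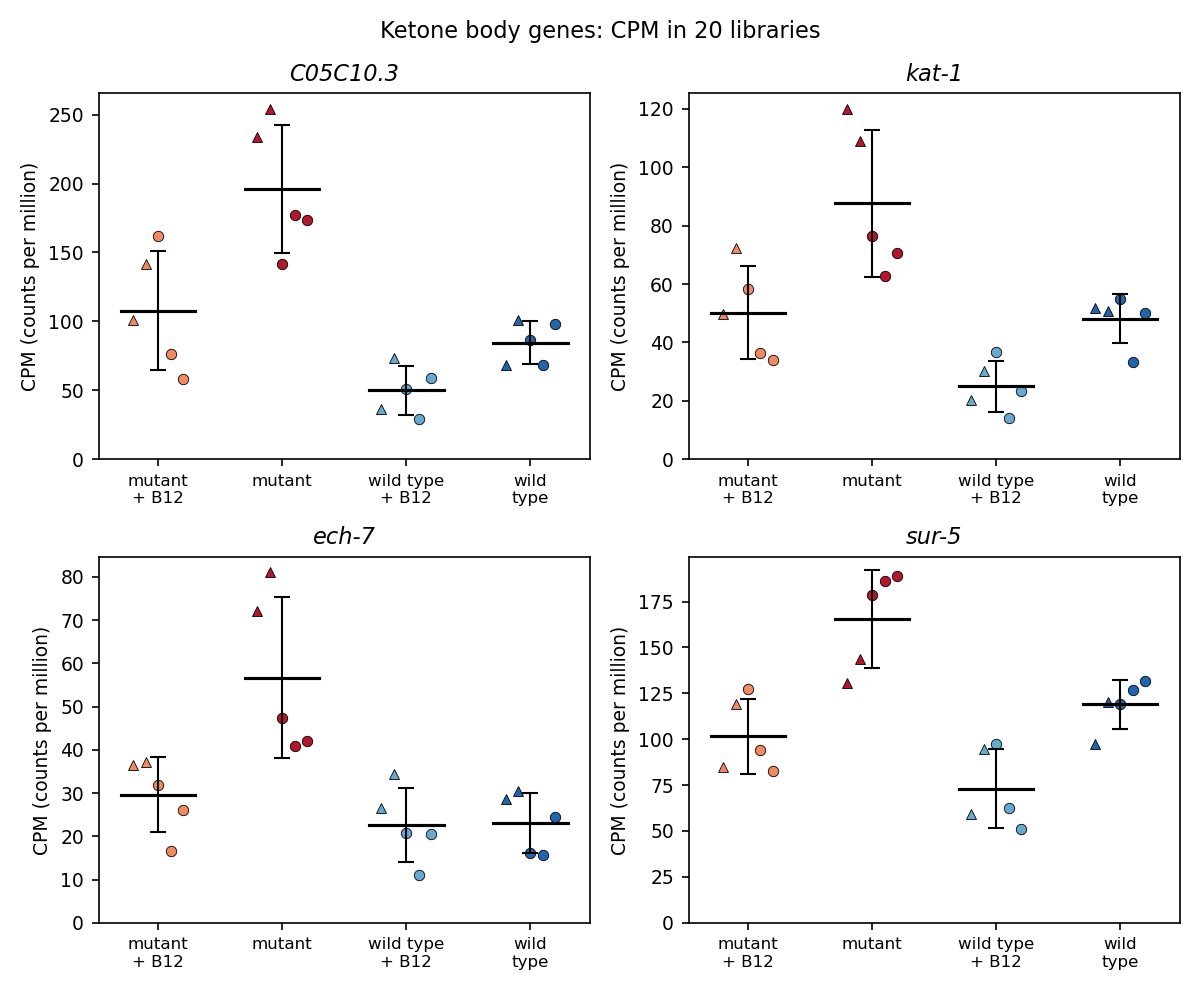
CPM of the 4 genes in each of the 20 libraries (y axis, linear and starting at 0), by group on the x axis. Triangles are replicates 1 and 2, circles are replicates 5 to 7, horizontal bars are means and error bars are SDs of 5 libraries. For *C05C10.3*, *kat-1* and *ech-7* every mutant library lies above every wild-type library without supplement.

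Without supplement, all 4 genes had more CPM in Δ*dhgd-1* mutants than in wild type, and for 3 of them the libraries did not overlap. The CoA transferase gene *C05C10.3* had 234, 254, 142, 177 and 173 CPM in mutant replicates 1, 2, 5, 6 and 7, against 68.5, 101, 86.7, 68.6 and 98.4 CPM in the wild-type replicates. Every mutant library was above every wild-type library, and replicates 1 and 2 were the highest of the mutants. The means were 196 ± 46.3 CPM in mutants and 84.6 ± 15.7 CPM in wild type (SD, n = 5 each), and the fitted log2 fold change was 1.05 (SE 0.24). In this bulk tissue, a change in the number of cells that express a gene and a change in its RNA per cell cannot be told apart.

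The other gene that attaches acetoacetate to coenzyme A, *sur-5*, differed least between the strains. It had 130, 144, 179, 186 and 189 CPM in mutants, against 97.1, 120, 119.2, 127 and 132 CPM in wild type. Here the lowest mutant library, replicate 1, lay below the highest wild-type library, replicate 7, although the mutant was higher in 5 of 5 same-numbered pairs. The log2 fold change was 0.33 (SE 0.20). The high libraries also differed from those of *C05C10.3*, since replicates 5 to 7 of the mutants had the most *sur-5* and the least *C05C10.3*.

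For the thiolase gene *kat-1*, mutants had 120, 109, 76.3, 62.7 and 70.6 CPM, against 51.7, 50.8, 54.9, 33.3 and 50.2 CPM in wild type. The groups did not overlap, but mutant replicate 6 (62.7 CPM) and wild-type replicate 5 (54.9 CPM) came close. The log2 fold change was 0.69 (SE 0.22). The hydratase gene *ech-7* had 72.1, 81.1, 47.4, 40.9 and 42.0 CPM in mutants, against 28.5, 30.5, 16.1, 15.7 and 24.4 CPM in wild type. Again no wild-type library reached the lowest mutant library, and in both strains replicates 1 and 2 were the highest. At 1.15 (SE 0.19) its log2 fold change was the largest of the 4.

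In the fit over all genes (edgeR's quasi-likelihood test, genes being called where the fold change exceeded 1.5 and the adjusted p lay under 0.05), 2 of the 4 genes, *C05C10.3* and *ech-7*, were called higher in mutants without supplement. Of all genes tested 1.82% were called higher and 2.81% in either direction, and CPM ranges did not overlap for 2.89% of genes. The choice of the 4 genes used this comparison, so nothing is read from their count. With replicate number as a block, which assumes that same-numbered libraries are paired, 627 genes were called in place of 317. The block called 3 of the 4 genes in place of 2, whereas within either series alone none of the 4 was called. Their median log2 fold change was 0.87 beside -0.03 over all genes tested. Scaling by library totals in place of TMM factors moved the median of all genes by 0.13 here, and all 4 values stayed positive under every alternative run. Summed markers of the intestine (6 of 6 detected) also ranged higher in mutants, from 4218 to 7776 CPM, against 2436 to 5093 CPM in wild type, and their part in these values was not tested. Summed body wall muscle markers had the higher median in mutants too, 2362 CPM against 1655 CPM in wild type. Hypodermis markers had the lower median in mutants, 6621 CPM against 8024 CPM. Their ranges overlapped, with 5247 to 13251 CPM in mutants and 5905 to 28766 CPM in wild type. Of the 5 hypodermis markers 3 averaged under 3 counts per library, so the sums of this list rest on the remaining genes in every comparison.

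With vitamin B12 in both strains, mutants again had the higher mean for each gene, and no gene had groups free of overlap. *C05C10.3* had 101, 142, 162, 76.3 and 58.4 CPM in supplemented mutants, against 36.6, 73.4, 51.2, 29.4 and 59.2 CPM in supplemented wild type. Mutant replicate 7 was the only mutant library inside the wild-type range. The log2 fold change was 1.06 (SE 0.24), close to that without supplement. For *kat-1* the values were 49.7, 72.5, 58.3, 36.6 and 33.9 CPM in supplemented mutants, against 20.4, 30.1, 36.7, 14.04 and 23.5 CPM in supplemented wild type. The mutant was higher in 5 of 5 pairs, and the overlap came from wild-type replicate 5 alone. Its log2 fold change was 0.93 (SE 0.22).

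The remaining genes differed less between the supplemented strains. *sur-5* had 84.8, 119.2, 127, 94.1 and 82.8 CPM in supplemented mutants, against 59.2, 94.7, 97.5, 62.4 and 51.1 CPM in supplemented wild type, and *ech-7* had 36.6, 37.3, 31.7, 16.5 and 26.1 CPM against 26.4, 34.5, 20.8, 11.1 and 20.6 CPM. Each was higher in mutants in 5 of 5 pairs, with replicates 2 and 5 highest in both strains for *sur-5* and replicates 1 and 2 for *ech-7*. The log2 fold changes were 0.41 (SE 0.20) for *sur-5* and 0.36 (SE 0.18) for *ech-7*. Of the 4 genes 1, *C05C10.3*, was called higher in this comparison, where 0.346% of all genes tested were called higher and CPM ranges of 0.852% did not overlap. The choice of the genes used this comparison as well. Of the 20 fits that left out 1 library, 9 called none of the 4 genes and 1 called 2, and 2 were called with the replicate block, where 107 genes were called in place of 62. Without the low-count filter 2 of the 4 and 194 genes in all were called. None was called without the series term, in the fit on the supplemented libraries alone or within either series.

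**Figure D2:**
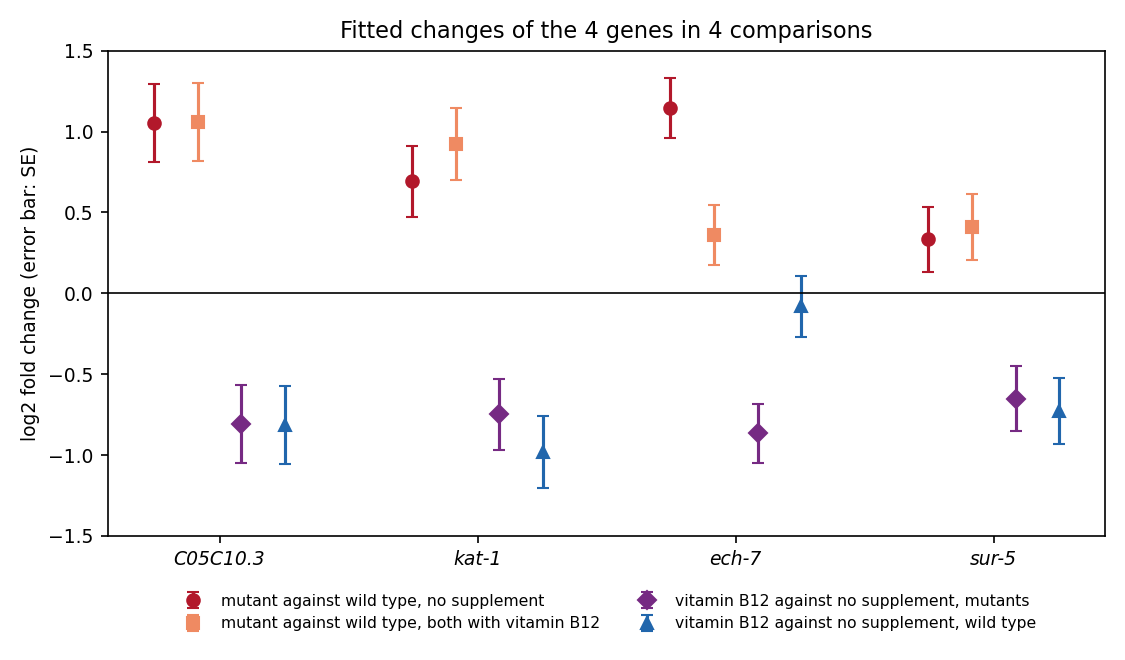
Fitted log2 fold changes (y axis; error bars are standard errors) of the 4 genes in the 4 comparisons named in the legend, from 1 fit over 20 libraries. All values between strains are positive and all values for vitamin B12 are negative, and *ech-7* in wild type lies nearest to 0.

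Vitamin B12 went with lower levels of all 4 genes in mutants. Supplemented mutants averaged 29.6 ± 8.61 CPM of *ech-7* and unsupplemented mutants 56.7 ± 18.6 CPM (SD, n = 5 each), and the highest supplemented library (37.3 CPM) was below the lowest unsupplemented one (40.9 CPM). The log2 fold change was -0.87 (SE 0.18). For *sur-5* the means were 102 ± 20.4 CPM with vitamin B12 and 165 ± 26.7 CPM without it, and the log2 fold change was -0.65 (SE 0.20). Its CPM ranges did not overlap, with 127 CPM against 130 CPM at the nearest libraries. When scaled with TMM factors, as in the fit, these 2 libraries did overlap, at log2 CPM of 6.97 with vitamin B12 and 6.90 without it. The groups overlapped for *C05C10.3*, which averaged 108 ± 43.5 CPM with vitamin B12 and 196 ± 46.3 CPM without it (-0.81, SE 0.24). Supplemented mutant replicate 5, with 162 CPM, was the highest supplemented library and exceeded unsupplemented replicate 5, with 142 CPM. Means of *kat-1* were 50.2 ± 15.9 CPM with vitamin B12 and 87.7 ± 25.2 CPM without it (-0.75, SE 0.22), and the supplemented library was the lower in 5 of 5 pairs. Only *ech-7* was called lower, 1 of the 4 genes, in a comparison used to choose them, beside 1.02% of all genes tested (1.86% were called in either direction), while CPM ranges did not overlap for 2.35% of genes. With the replicate block all 4 were called, and 372 genes in place of 210. Without the low-count filter 2 of the 4 and 413 genes in all were called, and 3 of the 20 fits that left out 1 library called 2. None was called without the series term or within either series. Summed intestine markers were also lower here in the median, with 4375 CPM in supplemented mutants (3241 to 5533 CPM) and 5339 CPM in unsupplemented mutants (4218 to 7776 CPM), and their part in these values was not tested. Medians of the body wall muscle markers were 2356 CPM with vitamin B12 and 2362 CPM without it, and those of the hypodermis markers 8363 and 6621 CPM. The ranges overlapped for both lists.

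In wild type the 4 genes divided. *kat-1* averaged 24.9 ± 8.74 CPM with vitamin B12 and 48.2 ± 8.52 CPM without it (log2 fold change -0.98, SE 0.22), *C05C10.3* 49.97 ± 17.6 CPM and 84.6 ± 15.7 CPM (-0.81, SE 0.24), and *sur-5* 73.0 ± 21.5 CPM and 119.1 ± 13.2 CPM (-0.73, SE 0.20). Each of these was lower with vitamin B12 in 5 of 5 pairs, with some overlap between the groups. The hydratase *ech-7* stood at 22.7 ± 8.59 CPM with vitamin B12 and 23.0 ± 6.86 CPM without it, lower in 3 of 5 pairs, with a log2 fold change of -0.08 (SE 0.19). Of the 4 genes 1, *kat-1*, was called lower in this comparison, also used in the choice, beside 0.674% of all genes tested, and none higher, beside 0.772%. The call was absent without supplemented wild-type replicate 1 or 6 or wild-type replicate 5, in the fit on the wild-type libraries alone, without the series term and within either series. Without supplemented wild-type replicate 2, 2 of the 4 genes were called. With the replicate block 3 of the 4 genes and 271 genes in all were called, in place of 1 and 163. Without the low-count filter 2 of the 4 and 342 genes in all were called. CPM ranges did not overlap for 1.36% of genes. Here summed intestine markers had the higher median with vitamin B12, 4894 CPM (939 to 6238 CPM) in supplemented wild type and 3609 CPM (2436 to 5093 CPM) in unsupplemented wild type. The medians were also higher for body wall muscle markers (1817 against 1655 CPM) and hypodermis markers (8921 against 8024 CPM). For both lists the ranges overlapped.

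The vitamin B12 effect in mutants minus that in wild type was 0.01 for *C05C10.3* (SE 0.33), 0.08 for *sur-5* (SE 0.28), 0.23 for *kat-1* (SE 0.31) and -0.78 for *ech-7* (SE 0.26) on the log2 scale. For *ech-7* the effect in mutants was the more negative in 5 of 5 sets of same-numbered libraries. None of the 4 genes was called for this difference, as 5 of all genes tested were (0.0444%), and 461 had an unadjusted p under 0.05. DESeq2 called 22 genes and the replicate block 13, none of them among the 4.

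Ordered by mean CPM, the 4 groups kept 1 sequence for *C05C10.3*, *kat-1* and *ech-7*: unsupplemented mutants highest, then supplemented mutants, unsupplemented wild type and supplemented wild type. Supplemented mutants and unsupplemented wild type, the neighbours in the middle, overlapped for every gene. Their means were 108 ± 43.5 and 84.6 ± 15.7 CPM for *C05C10.3*, 50.2 ± 15.9 and 48.2 ± 8.52 CPM for *kat-1*, and 29.6 ± 8.61 and 23.0 ± 6.86 CPM for *ech-7*. The fitted log2 differences between these groups were 0.24 (SE 0.24), -0.05 (SE 0.22) and 0.28 (SE 0.18), so for *kat-1* the fit had them in the opposite order. For *sur-5* these neighbours changed places in mean CPM as well as in the fit, with 102 ± 20.4 CPM in supplemented mutants and 119.1 ± 13.2 CPM in unsupplemented wild type (-0.32, SE 0.20). For *ech-7* the 2 wild-type groups were also neighbours that did not differ beyond their spread.

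The series of library names was not used to choose the genes, and each group holds both series in the same proportion, so this term of the fit was tested. *ech-7* was lower in replicates 5 to 7 than in replicates 1 and 2, by a log2 fold change of -0.63 (SE 0.13, edgeR adjusted p = 0.000379). Its means were 43.5 CPM in replicates 5 to 7 and 76.6 CPM in replicates 1 and 2 of the mutants, 24.8 and 36.9 CPM in supplemented mutants, 17.5 and 30.4 CPM in supplemented wild type, and 18.7 and 29.5 CPM in wild type. The direction was thus shared by all 4 groups. For *kat-1* (-0.28, adjusted p = 0.154), *C05C10.3* (-0.20, adjusted p = 0.359) and *sur-5* (0.22, adjusted p = 0.217) the term did not pass. Of all genes tested 38.9% were called for this term, 18.9% higher and 20.0% lower, so 1 of 4 lies near the background. Without supplemented mutant replicate 6 the value for *ech-7* was -0.58, under the fold of 1.5, with an adjusted p of 0.00135.

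The values were also taken within each series. Between the unsupplemented strains, the log2 fold changes from replicates 1 and 2 alone and from replicates 5 to 7 alone were 1.48 (SE 0.34) and 0.85 (SE 0.33) for *C05C10.3*, and 1.101 (SE 0.29) and 0.49 (SE 0.31) for *kat-1*. They were 1.32 (SE 0.26) and 1.103 (SE 0.27) for *ech-7*, and 0.28 (SE 0.28) and 0.43 (SE 0.27) for *sur-5*. *C05C10.3*, *kat-1* and *ech-7* thus had the larger value in replicates 1 and 2, and *sur-5* in replicates 5 to 7. The vitamin B12 effect on *ech-7* was -1.06 (SE 0.25) and -0.77 (SE 0.27) in mutants, and 0.09 (SE 0.26) and -0.17 (SE 0.27) in wild type, where it changed sign.

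All values between strains stayed positive without either library that stood apart. Without supplemented wild-type replicate 7, the log2 difference between the supplemented strains was 1.14 for *C05C10.3*, 0.92 for *kat-1*, 0.39 for *ech-7* and 0.28 for *sur-5*, where *sur-5* moved the most. That library had the lowest summed intestine markers, 939 CPM, and the lowest summed body wall muscle markers, 453 CPM. Without mutant replicate 1, the log2 difference between the unsupplemented strains was 1.03 for *C05C10.3*, 0.61 for *kat-1*, 1.15 for *ech-7* and 0.40 for *sur-5*.

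*C05C10.3* and *kat-1* lie on chromosome II, *ech-7* on chromosome I and *sur-5* on chromosome X. In the WBcel235 annotation, *C05C10.3* (WBGene00007330) runs from 9934398 to 9936893 on the minus strand with 5 exons, and its 3′ untranslated region is 149 bases long. Its last 34 bases, all exonic, overlap the end of *pho-11*, a gene for a predicted acid phosphatase on the plus strand (9931849 to 9934431). The *kat-1* gene (WBGene00002183) spans 7073814 to 7075511 on the plus strand with 6 exons, and a second thiolase gene, *T02G5.7*, begins downstream on the same strand after a gap of 102 bases. *ech-7* (WBGene00001156, 14367616 to 14369773, minus strand) has 3 exons and an annotated 3′ untranslated region of only 3 bases. *sur-5* (WBGene00006351, 7301389 to 7305570, minus strand) has 12 exons. The deleted gene *dhgd-1* is on chromosome II too, 1602002 bases from *C05C10.3* and 4463384 bases from *kat-1*. On chromosome II 2.35% of genes tested were called between the unsupplemented strains, against 2.91% on the other chromosomes.

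Because the method reads 3′ ends and the sources used here do not say whether counting used the strand, *pho-11* was examined beside *C05C10.3*. *pho-11* had 213, 96.2, 65.1, 79.5 and 85.2 CPM in supplemented mutants, against 80.6, 76.0, 18.8, 27.3 and 21.5 CPM in unsupplemented mutants. In wild type it had 182, 108, 106, 46.0 and 53.5 CPM with vitamin B12, against 56.1, 56.5, 49.4, 21.99 and 14.6 CPM without it. It was thus higher with vitamin B12 in 5 of 5 pairs of each strain, the opposite of *C05C10.3*. The log2 fold changes were 1.48 in mutants (SE 0.31, edgeR adjusted p = 0.00747) and 1.25 in wild type (SE 0.30, adjusted p = 0.0323). Neither call held without the series term, and that in wild type was lost in 6 of the 20 fits without 1 library, namely wild-type replicates 1, 2, 6 and 7 and supplemented wild-type replicates 1 and 5, with a lowest value of 1.03. Between the strains *pho-11* gave -0.14 (adjusted p = 0.890) without and 0.08 (adjusted p = 0.984) with vitamin B12.

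**Figure D3:**
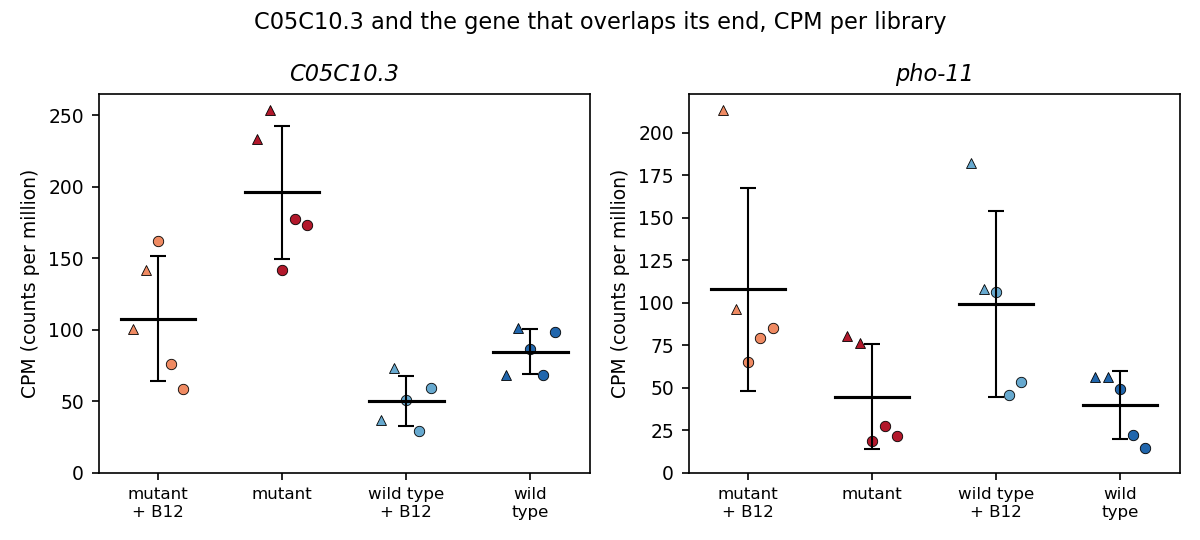
CPM per library of *C05C10.3* and of *pho-11*, whose 3′ ends overlap on opposite strands (y axes start at 0; symbols, means and SDs of 5 libraries as drawn for the 4 genes). *C05C10.3* is lower and *pho-11* higher in the supplemented groups.

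The sum of both genes averaged 216 ± 69.0 CPM in supplemented mutants and 241 ± 76.2 CPM in unsupplemented mutants (SD, n = 5 each). In wild type it was 149 ± 56.5 CPM with vitamin B12 and 124 ± 25.1 CPM without it. The mean of the sum was thus higher in mutants with and without vitamin B12. With vitamin B12 it was lower in mutants and higher in wild type, by less than 1 SD in each strain. Whether reads of one gene were counted for the other was not tested. The neighbour of *kat-1*, *T02G5.7*, averaged 193 ± 16.7 CPM in mutants and 199 ± 49.7 CPM in wild type, and its log2 fold changes in the 4 comparisons, from -0.21 to -0.03, were not called. Next to the 3′ end of *ech-7*, *slc-30A5* ends on the opposite strand after a gap of 21 bases and did not pass the test in any of the 4 comparisons, with log2 fold changes of -0.02, 0.23, 0.12 and -0.13. The microRNA gene *cel-mir-8187* lies inside *ech-7* on the same strand without overlapping its exons.

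**Figure D4:**
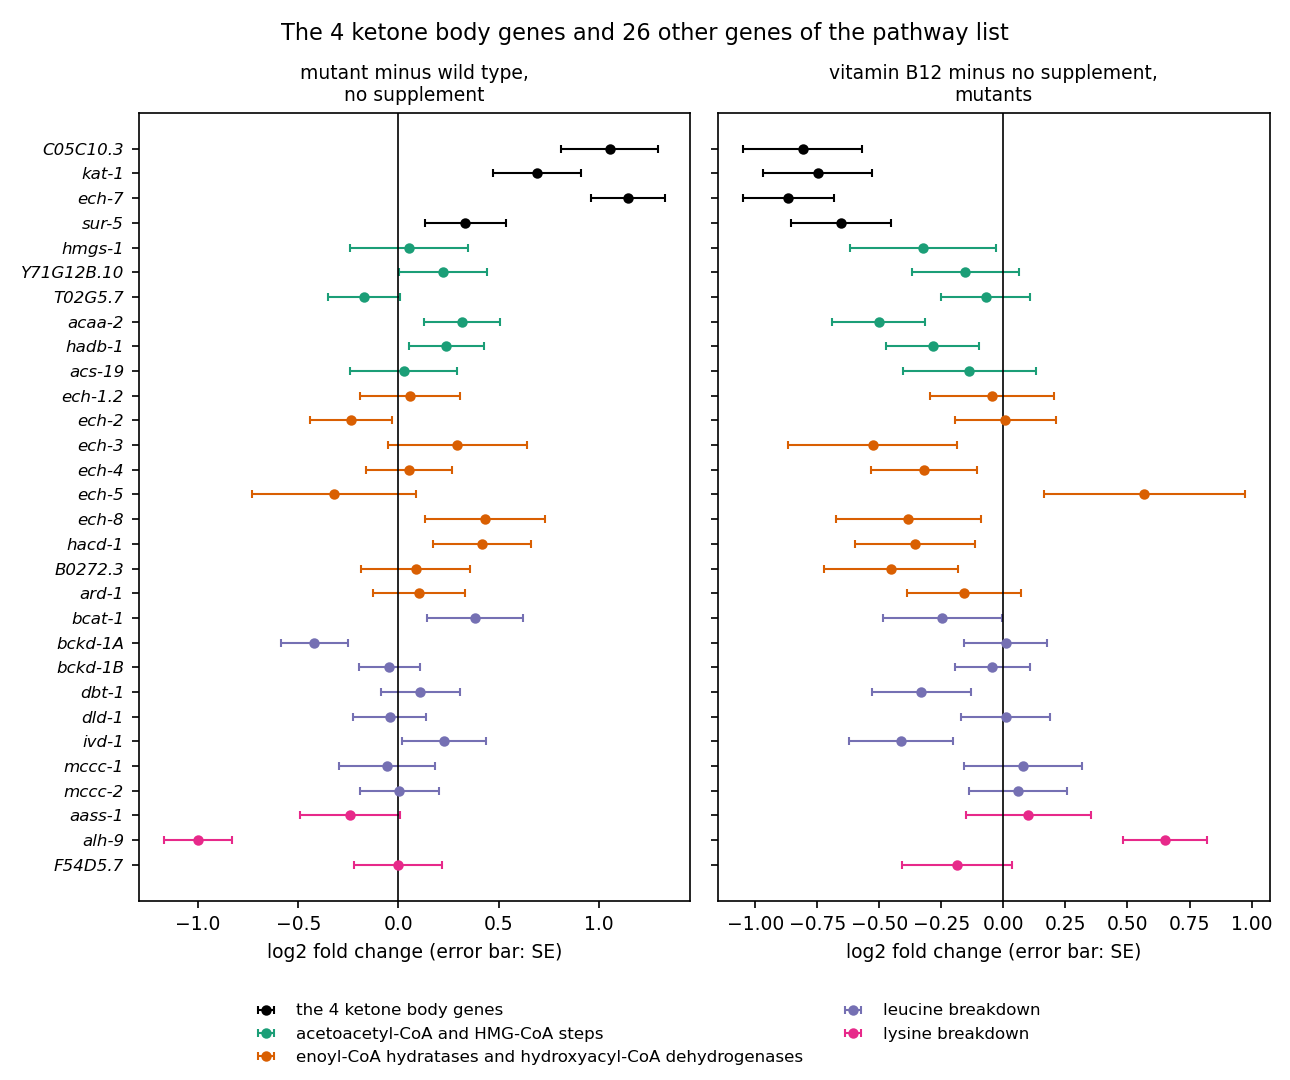
Fitted log2 fold changes (x axes; error bars are standard errors) of the 4 genes, in black, and of 26 other genes of ketone body and related breakdown, coloured by list. The left panel compares mutants with wild type without supplement and the right panel compares vitamin B12 with no supplement in mutants. *alh-9* lies apart from its list on the opposite side to the 4 genes in both panels.

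Other genes of the pathway were read from a list of 30, made from known roles while earlier results of these data were known. It covered steps of acetoacetyl-CoA and HMG-CoA, enoyl-CoA hydratases and hydroxyacyl-CoA dehydrogenases, and the breakdown of leucine and lysine. Of the 30 genes 29 were matched and 26 passed the filter, and *T02G5.4* was not analysed here. Between the unsupplemented strains 1 of 26 was called lower and none higher, beside 0.994% and 1.82% of all genes tested. That gene was *alh-9*, an ortholog of the human aldehyde dehydrogenase that oxidizes aminoadipate semialdehyde in lysine breakdown. It averaged 250 ± 47.8 CPM in mutants and 468 ± 131 CPM in wild type (log2 fold change -1.0002, SE 0.17, edgeR adjusted p = 0.000961). The mutant values lay from 182 to 317 CPM and those of wild type from 313 to 610 CPM, so they just overlapped. The call was kept in all 20 fits that left out 1 library, and was absent within either series alone.

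With vitamin B12, *alh-9* rose in mutants, the only one of 26 called higher (none lower), beside 0.843% higher and 1.02% lower of all genes tested. It had 385 ± 81.2 CPM with vitamin B12 and 250 ± 47.8 CPM without it (log2 fold change 0.65, SE 0.17, adjusted p = 0.0439). This call was lost in 10 of the 20 fits without 1 library, with values from 0.58 to 0.75. The libraries whose absence ended it were mutant replicates 1, 2, 5 and 7, supplemented mutant replicates 1, 5, 6 and 7 and wild-type replicates 1 and 5. The change of *alh-9* thus ran against that of the 4 ketone body genes in both comparisons.

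Between the supplemented strains edgeR called none of the 26 genes, beside 0.550% of all genes tested, and 3 had an unadjusted p under 0.05: *alh-9* (-0.69), *ivd-1* of leucine breakdown (0.56) and the thiolase gene *acaa-2* (0.39). DESeq2 and the replicate block each called *alh-9* there (adjusted p = 0.00341 and 0.0348). With vitamin B12 in wild type none was called, beside 1.45% of all genes tested, and 3 had an unadjusted p under 0.05: *ivd-1* (-0.74), *acaa-2* (-0.58) and *aass-1* of lysine breakdown (-0.53). DESeq2 and the replicate block each called *ivd-1* (adjusted p = 0.0342 and 0.00884). For the difference of the vitamin B12 effects none of the 26 was called by edgeR, by DESeq2 or with the replicate block, and 0 had an unadjusted p under 0.05. *ivd-1*, *acaa-2* and *aass-1* were chosen once their values were known.

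The medians of the 26 genes were 0.05 between the unsupplemented strains and 0.07 between the supplemented ones, beside -0.03 and 0.01 over all genes tested. With vitamin B12 they were -0.16 in mutants and -0.16 in wild type, beside 0.01 and -0.03. Medians of the 4 ketone body genes were 0.87, 0.67, -0.78 and -0.77 in the same order, fixed by their choice. The thiolase *T02G5.7* and the fatty acid oxidation gene *ech-1.2*, close paralogs of *kat-1* and of the hydratases, were not called in any of these comparisons. *ech-1.2* had log2 fold changes of 0.06 and 0.33 between the strains and of -0.05 and -0.32 with vitamin B12. Its value between the unsupplemented strains was negative without wild-type replicate 7, without mutant replicate 6 and in replicates 1 and 2 alone (-0.19), and reached 0.26 in replicates 5 to 7 alone. For the series term 7 of 26 genes were called higher and 4 lower, 11 in all beside 38.9% of all genes tested.

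Genes with the most similar profile were sought among the 7724 genes whose mean count reached 50, by the root mean square difference of log2 CPM centred on each gene's mean over the 20 libraries. *C05C10.3* and *kat-1* were nearest to each other, at 0.29 log2 units, beside medians over all candidates of 0.91 for *C05C10.3* and 0.84 for *kat-1*. Outside the 4 genes, *C05C10.3* was nearest to *vwa-8* (0.39), *acdh-9*, an acyl-CoA dehydrogenase gene (0.43), and *bca-1*, a carbonic anhydrase gene (0.45). *kat-1* was nearest to *acdh-9* (0.30), the lactate dehydrogenase gene *ldh-1* (0.33) and the glyceraldehyde phosphate dehydrogenase gene *gpd-2* (0.36).

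*ech-7* and *sur-5* lay further from the other ketone body genes than *C05C10.3* and *kat-1* lay from each other. *ech-7* was nearest to the aldolase gene *aldo-1* (0.32), *K11H12.8* (0.32) and the proprotein convertase gene *egl-3* (0.33), and stood at 0.46 from *kat-1* and 0.47 from *C05C10.3*. The median over all candidates was 0.79 for *ech-7*. Seen from *C05C10.3*, *ech-7* held rank 6 among the candidates, whereas *C05C10.3* held rank 123 seen from *ech-7*. For *sur-5* the nearest genes were *nft-1* (0.21), *F11G11.5* (0.29) and *C32D5.11* (0.29), and its distances were 0.47 to *kat-1*, 0.52 to *C05C10.3* and 0.61 to *ech-7*. Its median over all candidates was 0.66, and *ech-7* held rank 2700 among the 7724 candidates seen from *sur-5*. The root mean square deviation of *sur-5* from its own mean was 0.50, less than its distances to *C05C10.3* and *ech-7*. These distances are descriptions over libraries that share depth and replicate series, and each rests on the same 20 samples that chose the genes.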

How the data were processed

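The authors deposited whole-number read counts per gene, without normalization, for all 20 libraries. By the study's methods, Cel-seq2 libraries, which are read next to the poly(A) tail, were demultiplexed, trimmed with Trimmomatic 0.32, aligned with STAR and counted with ESAT. The genome build, the handling of molecular identifiers and the use of strand are not given in the sources used here. A count therefore depends little on gene length, and no sequence was printed because none was at hand. Of the identifiers 22497 matched a symbol.

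Counts were analysed in R 4.3.3 with edgeR 4.0.16 (TMM factors, filterByExpr by group, glmQLFit and glmQLFTest, group and library series as terms, all 20 libraries, Benjamini-Hochberg adjustment over 11270 genes). DESeq2 1.42.0 was an alternative, and figures used Python 3.11.15 with matplotlib 3.10.9. CPM in the text is scaled by library totals, whereas log2 fold changes use TMM factors. Library totals ranged from 2837943 to 15457950, which sets the counting error. The methods name 2 sequencers for 2 and 3 replicates; that the library series correspond to them is inferred from the names. Deviations from group means correlated between same-numbered libraries in every pair (0.20 to 0.73). Such libraries always share a series, which alone can give this. With the series also removed the range was -0.22 to 0.67, so these values do not settle whether the numbers pair the libraries. Pairing by number is an assumption of the replicate block and of the counts of pairs.

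Members and lists were chosen with earlier results of these data known. Named are the 4 genes, pathway genes called or close paralogs, the 3 nearest profiles per gene, overlapping or adjacent genes, and *dhgd-1* and *acdh-1*. Alternatives were normalization, filter, series term, replicate block, tool, the libraries fitted and each library left out. A planned promoter motif count was not run. On simulated data with 11270 genes for mutants against wild type without supplement, 49 of 100 genes changed 2-fold and 92 of 100 changed 4-fold were called, with 5 false among 146 calls. The simulated libraries were independent and had no series difference, whereas 38.9% of real genes were called for the series term. These figures therefore hold for a simpler setting than the data.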

Additional observations from a re-analysis of the deposited data

Results flagged for a closer look

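Of 28 gene-by-group sets of 5 libraries examined for a value far from the rest, 2 held one, and chance gives about 1 in 20. *kat-1* in wild-type replicate 6 had 33.3 CPM, where the next lowest wild-type library had 50.2 CPM, and the gap was 0.785 of the range. *pho-11* in supplemented mutant replicate 1 had 213 CPM, where the next highest supplemented mutant library had 96.2 CPM, a gap of 0.790 of the range.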

How the results depend on the processing

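For mutants against wild type without supplement, the same with vitamin B12, vitamin B12 in wild type, and the difference of the vitamin B12 effects, 317, 62, 163 and 5 genes were called. Without the low-count filter these counts were 623, 194, 342 and 80, and without the series term 137, 26, 80 and 2. With replicate number as a block they were 627, 107, 271 and 13, and the block also called 1 gene of the pathway list between the supplemented strains and 1 with vitamin B12 in wild type, where edgeR without the block called 0. DESeq2 called 502 genes between the unsupplemented strains, 105 between the supplemented ones and 22 for the difference, and 1 pathway gene in each of the same 2 comparisons as the block. A fit on the supplemented libraries alone called 39 genes between the supplemented strains. Replicates 1 and 2 alone gave 22, 5, 12 and 0 genes, and replicates 5 to 7 alone gave 104, 17, 79 and 1, fits that hold fewer libraries. With vitamin B12 in mutants, 95 genes were called higher and 115 lower. These counts were 170 and 243 without the filter, 34 and 51 without the series term, 151 and 221 with the replicate block, 1 and 7 in replicates 1 and 2 alone, and 74 and 45 in replicates 5 to 7 alone. Within either series 0 pathway genes were called between the unsupplemented strains, where all libraries called 1. For vitamin B12 in mutants the pathway count was 0 in place of 1 within either series, without the series term, without the filter and with scaling by library totals alone; the cause was not tested. RLE normalization changed none of these counts by over 1.5 times.

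Leaving out 1 library at a time gave 196 to 423 genes between the unsupplemented strains, the lowest without mutant replicate 5, 36 to 72 between the supplemented strains, the lowest without supplemented mutant replicate 5, and 3 to 7 for the difference, the lowest without supplemented wild-type replicate 1. For vitamin B12 in mutants 54 to 112 genes were then called higher, with 54 without supplemented mutant replicate 7 and 57 without mutant replicate 7, and 86 to 149 lower. Pathway counts ranged from 0 to 1 between the supplemented strains and from 0 to 1 for vitamin B12 in either strain. The series term of *ech-7* ranged from -0.70 to -0.58. Of 692 values of the 4 genes under alternatives, 689 moved by less than the spread between replicates. That spread was the pooled SD of log2 CPM within groups, from 0.33 for *sur-5* to 0.42 for *ech-7*. The 3 values that moved further came from replicates 1 and 2 alone: between the unsupplemented strains *C05C10.3* had a log2 fold change of 1.48 and *kat-1* one of 1.101, and the difference of the vitamin B12 effects for *C05C10.3* was -0.45, where all libraries gave 0.01. Most alternatives left out 1 library, which can seldom move a value by a whole SD, and the smaller values are no larger than that SD. The count of 689 therefore does not show that the values are stable. No called value changed sign. Replicates 1 and 2 had the lower median depth, 4832616.5 counts against 11411483 in replicates 5 to 7. Whether depth set the precision of values within a series was not tested.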
